A study of Mus musculus with 10 samples.

Results

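The genes described here are the ligands, receptors, SMADs, inhibitors and Id genes of the TGF-beta, BMP and activin pathway, followed by RNA-seq of the dissected intermediate lobe (IL) of the mouse pituitary. They were chosen by symbol, and 44 of the 29527 genes in the deposited table were found: 14 ligand subunits (Bmp2 to Bmp7, Bmp8b, Bmp15, Tgfb1 to Tgfb3, Inha, Inhba and Inhbb), 12 receptors (Acvr1, Acvr1b, Acvr1c, Acvr2a, Acvr2b, Acvrl1, Bmpr1a, Bmpr1b, Bmpr2 and Tgfbr1 to Tgfbr3), 8 SMADs (Smad1 to Smad7 and Smad9), 4 Id genes (Id1 to Id4), 5 inhibitors (Bambi, Chrd, Fst, Grem1 and Nog) and the protease Bmp1. ILs of animals aged 2 to 3 months were compared, in 4 samples of wild-type (WT) mice, 3 of p27-/- mice and 3 of p27-/-;Sox2+/- mice. p27-/- mice lack both functional copies of Cdkn1b, the gene of the cell cycle inhibitor P27 (allele Cdkn1b tm1Mf in the study's methods), in every cell, and develop IL tumors later in life. p27-/-;Sox2+/- mice, called compound mutants below, also lack 1 copy of Sox2, the gene of a stem cell transcription factor, again in every cell, and the Sox2 allele is not named for these samples. Both mutant groups thus share the loss of P27, and Sox2+/- animals with intact p27 were not analysed here. Tissue came from males and females.

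Ligands of the TGF-beta superfamily are secreted dimers. They bind a pair of type II and type I serine/threonine kinase receptors, which phosphorylate receptor SMADs, SMAD2 and SMAD3 below TGF-beta and activin receptors and SMAD1, SMAD5 and SMAD9 below BMP receptors. These enter the nucleus with SMAD4, and SMAD6 and SMAD7 oppose them. The Id genes, whose proteins block DNA binding by basic helix-loop-helix factors, are well known BMP targets. In the pituitary, activins promote and inhibins oppose the synthesis of follicle-stimulating hormone in the anterior lobe, and BMP signals take part in forming the gland in the embryo.

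The values are log2 values made from normalized counts by a transformation that is not named, and the table does not give the depth of a sample. The lowest values hardly varied, as for Bmp15 (-1.60 to -1.57 in all 10 samples), so the scale may draw low values together. Levels and fold changes are those of this scale and may differ from those of plain normalized counts. The tissue carried the markers of the IL endocrine cell, the melanotroph: the log2 value of Pomc, the precursor of melanocyte stimulating hormone, was between 18.00 and 19.00 in all 10 samples, and that of the melanotroph factor Pax7 between 11.45 and 11.97. Cdkn1b was between 8.39 and 8.85 in WT, 8.04 and 8.27 in p27-/- and 7.73 and 8.10 in compound mutant samples, so reads from the locus remained in both mutants. Sox2 was between 7.34 and 7.75, 7.08 and 7.45, and 6.88 and 7.07, respectively. RNA of the neighboring lobes was present in varying amounts. The prolactin gene Prl ranged from 11.40 to 17.54 among WT samples, highest in WT replicate 2, and from 11.43 to 16.34 in p27-/- samples. Since whole tissue was measured, fewer cells of a type and less RNA per cell cannot be told apart.

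In the WT IL, receptors, SMADs and Id genes held the highest levels among the members. To compare genes, levels were divided by the exon length in kb (subtracted on the log2 scale). The lengths came from an older annotation than the counts, and a length that is too short raises a level. Bmpr2 was given 3507 bases, and its rank below depends on this length. The highest levels per length in WT were those of the BMP receptors Bmpr2 (9.47) and Bmpr1a (8.23), followed by Smad5 (7.62), Id2 (7.47), the activin type II receptor Acvr2a (7.40), the TGF-beta co-receptor Tgfbr3, Smad2 and Smad4 (7.21 each) and Id4 (7.19). Among the ligands, Inha, the alpha subunit that turns an activin chain into an inhibin, led with 7.05, ahead of Bmp6 (5.86), the activin subunit Inhba (5.74), Tgfb3 (5.61), Bmp3 (5.21), Bmp7 (5.03) and Tgfb2 (4.94), while Tgfb1 (2.47) and Bmp5 (2.27) were low. Acvr1c (1.05) and Acvrl1 (1.51), the latter an endothelial type I receptor, were the lowest receptors. Neighbors in this order, such as Tgfbr3, Smad2 and Smad4 or Bmp6 and Inhba, were closer than the spread of the WT samples.

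**Figure D1:**
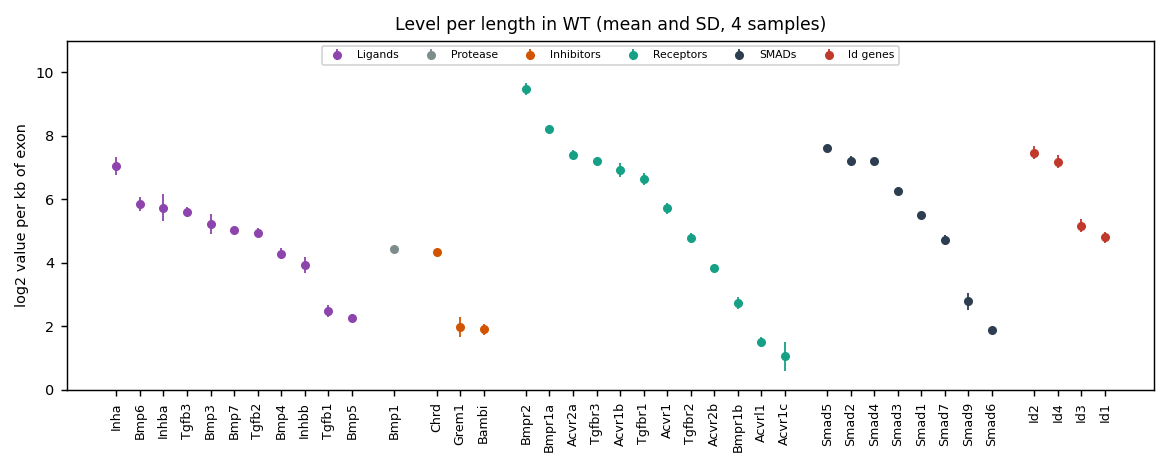
Level per length of the 39 tested members in WT, as the log2 value per kb of exon (y axis), grouped by role; points are means and bars SDs of 4 samples. Receptors and SMADs span the scale from Bmpr2 (9.47) to Acvr1c (1.05), and Inha (7.05) is the highest ligand.

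Genes were tested for a difference between genotypes where their mean deposited log2 value over the 10 samples was at least 3.32, or 10 on the linear scale. This left 39 members of 17268 genes. The 5 members below the minimum were Bmp2 (log2 values 1.88 to 2.14), Bmp8b (2.97 to 3.23), Bmp15 (-1.60 to -1.57), Fst (1.89 to 2.17) and Nog (-0.06 to 0.01), and their groups were not compared.

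In p27-/- samples 1 pathway gene, Id2, changed past the threshold. Against WT, Id2 rose and no member fell (limma, adjusted p under 0.05), that is 2.56% of the 39 tested members, whereas 7.78% of all tested genes changed, 3.16% higher and 4.62% lower. At an unadjusted p under 0.05 there were 12 members, 3 higher and 9 lower, or 30.8% against 24.1% of all genes, with 23.1% of members and 12.8% of all genes on the lower side and 7.69% and 11.3% on the higher side. Groups that did not overlap were seen in 8 members, Bmp1, Id2 and Smad5 higher and Bmpr2, Inhba, Tgfb2, Tgfbr2 and Tgfbr3 lower, or 20.5% against 20.6% of all genes (10.2% higher and 10.3% lower). The share without overlap was thus near that of all genes, and the share on the unadjusted lower side was above it. The median log2 difference was -0.055 over the members and 0.0087 over all tested genes, and 26 of the 39 members (66.7%) were below 0, against 48.4% of all genes. By role, 10 of 11 tested ligands and 11 of 12 receptors had a mean below WT, with medians of -0.24 and -0.08, against 3 of 8 SMADs and none of the 4 Id genes. The receptor count rested in part on single samples, on the scaling and on covariates. It was 7 of 12 (median -0.05) without p27-/- replicate 2, and 9 of 12 without WT replicate 2. It was also 9 of 12 with each sample centred on its median, with quantile normalization, or with a covariate of anterior or posterior lobe markers. Without WT replicate 4 or p27-/- replicate 3, with an Xist covariate or with a replicate block it was 10 of 12. Without p27-/- replicate 1 the receptor median was -0.18. The SMAD count was 1 of 8 without WT replicate 3, and 4 of 8 without WT replicate 2 or 4 or with the replicate block. The Id count was 1 of 4 without WT replicate 1 or p27-/- replicate 1 or 2. The ligand count was 9 to 11 of 11 in the settings that tested all 11.

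In compound mutant compared with WT samples, 1 member again passed the threshold, and it was another gene: the TGF-beta receptor Tgfbr2 fell. This was 2.56% of the members, against 2.71% of all tested genes, 0.828% higher and 1.88% lower. At an unadjusted p under 0.05 there were 6 members, Smad1 higher and Bmpr1b, Id3, Inhba, Inhbb and Tgfbr2 lower, or 15.4% against 17.8% of all genes (7.64% higher and 10.2% lower). Groups that did not overlap were those of Smad1, higher, and Chrd, Inhbb and Tgfbr2, lower, or 10.3% against 15.0% (7.02% higher and 8.01% lower). The median was -0.0152 over the members and 0.0098 over all genes. Both comparisons use the same WT samples.

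**Figure D2:**
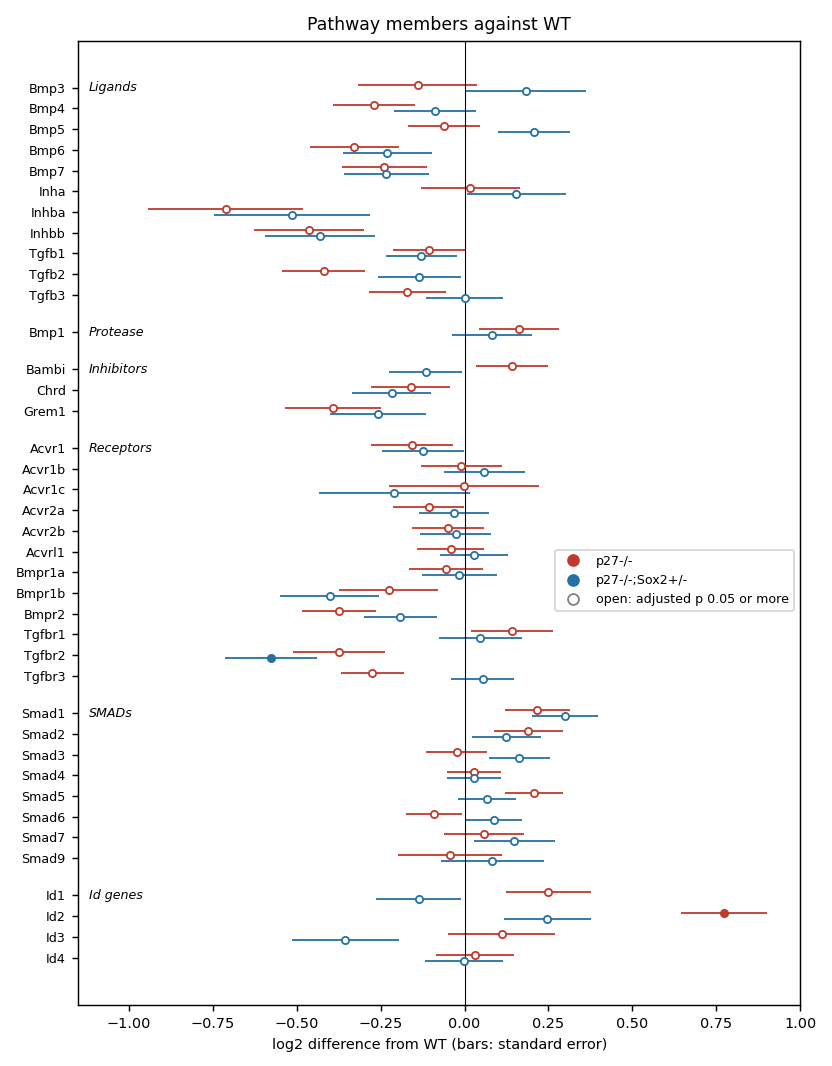
Log2 difference from WT (x axis) of the 39 tested members, by role, in p27-/- (red) and p27-/-;Sox2+/- (blue) samples; points are differences from the fit, bars standard errors, and filled points have an adjusted p under 0.05. Id2 in p27-/- (0.77) and Tgfbr2 in p27-/-;Sox2+/- (-0.58) are the filled points, and most ligands lie left of 0 in p27-/-.

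Id2 had the largest difference of the members in p27-/- samples. Id2 (ENSMUSG00000020644) lies at chr12:25093799-25096092 of GRCm38.p6. Its log2 values were 7.61, 8.06, 7.89 and 7.70 in WT, 8.69, 8.65 and 8.43 in p27-/- and 7.84, 8.13 and 8.22 in compound mutant samples. All p27-/- samples were thus above all samples of the other genotypes, while compound mutant and WT samples overlapped. The mean rose from 7.82 ± 0.20 (SD, n = 4) in WT to 8.59 ± 0.14 (SD, n = 3) in p27-/- samples, a log2 difference of 0.77 (standard error 0.13, 95% confidence interval 0.50 to 1.05, 1.71-fold, limma adjusted p = 0.0039). In compound mutants, with a mean of 8.06 ± 0.20 (SD, n = 3), the difference from WT was 0.25 (standard error 0.13, interval -0.03 to 0.52, adjusted p = 0.338). The call in p27-/- stood in all 21 alternative settings, with adjusted p-values from 0.00194 to 0.0221. The 6 tested markers of proliferating cells rose as well in p27-/- samples, and of these Mki67 and Top2a rose in compound mutants. The log2 value of the sum of all 7 listed markers, with Plk1 below the minimum, was 8.25 to 9.12 in WT. It was 10.09 to 10.74 in p27-/- and 9.30 to 9.77 in compound mutant samples. The part of these markers in the Id2 result was not tested.

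None of the other Id genes passed the threshold in either mutant, and whether their differences were unlike that of Id2 was not tested. Id1 was 5.06, 5.04, 4.79 and 5.19 in WT, 5.38, 5.02 and 5.40 in p27-/- and 4.84, 4.97 and 4.83 in compound mutant samples. Its difference from WT was 0.25 in p27-/- (interval -0.02 to 0.52, adjusted p = 0.249) and -0.14 in compound mutants (interval -0.41 to 0.14, adjusted p = 0.615). Id1 samples of both mutants overlapped with WT but not with each other. Id3 was 5.94, 6.32, 5.82 and 5.96 in WT, 6.44, 5.93 and 5.99 in p27-/- and 5.58, 5.51 and 5.88 in compound mutant samples, with differences from WT of 0.11 (interval -0.23 to 0.45, adjusted p = 0.714) and -0.35 (interval -0.69 to -0.01, adjusted p = 0.258). Id4, the Id gene with the highest level per length in WT after Id2, had the smallest differences of the 4, 0.03 in p27-/- (interval -0.22 to 0.28, adjusted p = 0.904) and 0.00 in compound mutants (interval -0.25 to 0.25, adjusted p = 0.996). The distance between Id2 and Id3 within a sample, chosen after the values were seen and not tested, was 1.67 to 2.07 log2 units in WT, 2.25 to 2.72 in p27-/- and 2.27 to 2.62 in compound mutant samples.

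**Figure D3:**
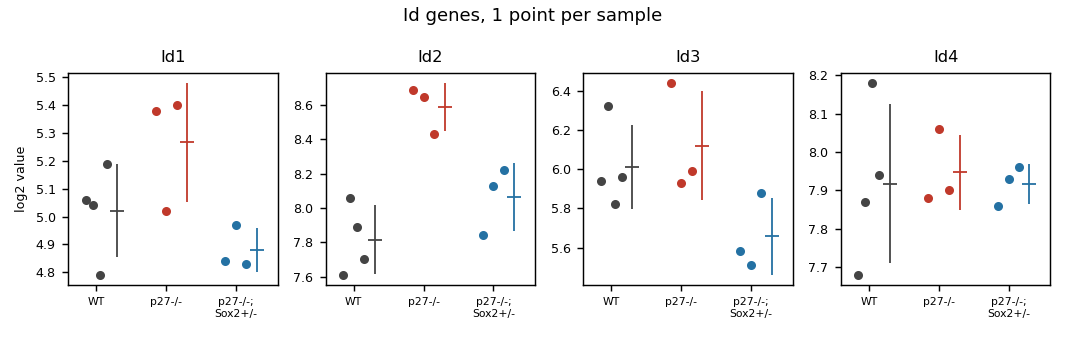
Log2 values (y axis) of the 4 Id genes in each sample of the 3 genotypes, with the mean and SD of each group beside the points. The p27-/- samples of Id2 (8.43 to 8.69) lie above all others, and for Id1, Id2 and Id3 the p27-/-;Sox2+/- samples lie below the p27-/- samples.

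The promoters of Id genes and of Tgfbr2, the genes these comparisons turn on, are shown for the 250 bases before the transcription start, 5′ to 3′ on the strand of the gene, from RefSeq on GRCm38.p6. Of the 44 members 30 had a promoter entry, Id1 not among them. Capitals mark 3 motifs, searched on both strands. The core of the SMAD box is spelled AGAC, or read from the other strand as GTCT. The second is the GC-rich SMAD element with the letters GGCGCC, which is its own reverse complement. The third, the box of the factor NF-Y, is spelled CCAAT and, when read from the other strand, ATTGG. No match shown overlaps another. The Id2 window (chr12:25096093-25096342, minus strand) holds 1 SMAD box core, 1 GC-rich element and 3 NF-Y boxes. The Id3 window (chr4:136143572-136143821, plus strand) holds 2 SMAD box cores. The Id4 window (chr13:48260866-48261115, plus strand) holds 1 GC-rich element and 2 NF-Y boxes, and the Tgfbr2 window (chr9:116175364-116175613, minus strand) 1 SMAD box core and 2 NF-Y boxes:
Id2: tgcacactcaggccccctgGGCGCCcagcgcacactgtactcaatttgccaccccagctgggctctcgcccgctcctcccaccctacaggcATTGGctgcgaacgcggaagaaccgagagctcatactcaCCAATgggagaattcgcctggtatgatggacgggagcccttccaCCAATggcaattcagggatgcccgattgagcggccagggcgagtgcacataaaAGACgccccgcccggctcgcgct
Id3: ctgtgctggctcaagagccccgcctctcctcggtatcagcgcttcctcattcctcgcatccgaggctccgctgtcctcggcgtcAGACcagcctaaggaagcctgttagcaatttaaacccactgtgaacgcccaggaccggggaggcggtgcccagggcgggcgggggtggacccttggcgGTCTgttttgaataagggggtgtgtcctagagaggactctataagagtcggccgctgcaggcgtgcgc
Id4: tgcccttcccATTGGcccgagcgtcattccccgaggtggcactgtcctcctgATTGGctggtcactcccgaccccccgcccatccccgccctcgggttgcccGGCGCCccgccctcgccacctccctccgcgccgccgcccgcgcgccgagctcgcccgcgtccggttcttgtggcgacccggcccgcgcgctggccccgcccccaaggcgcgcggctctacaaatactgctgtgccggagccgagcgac
Tgfbr2: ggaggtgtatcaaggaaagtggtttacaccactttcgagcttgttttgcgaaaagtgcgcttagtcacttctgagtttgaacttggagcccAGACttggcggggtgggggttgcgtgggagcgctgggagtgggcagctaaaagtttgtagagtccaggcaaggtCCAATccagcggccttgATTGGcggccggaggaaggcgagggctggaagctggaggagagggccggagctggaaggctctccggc
Of 32851 mouse promoter windows of this length, 82.9% hold a SMAD box core, 9.59% the GC-rich element and 33.8% an NF-Y box, and 2.79% hold 3 or more NF-Y boxes. The matches are letters only, and binding was not measured.

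Among the receptors, Tgfbr2, the type II receptor that binds TGF-beta, fell in compound mutants. Tgfbr2 (ENSMUSG00000032440, chr9:116087695-116175363) was 8.01, 7.84, 7.70 and 7.63 in WT, 7.60, 7.41 and 7.25 in p27-/- and 7.38, 6.94 and 7.33 in compound mutant samples. All mutant samples were below all WT samples, and the mutants overlapped. The mean of 7.80 ± 0.17 (SD, n = 4) in WT compared with 7.22 ± 0.24 (SD, n = 3) in compound mutants, a log2 difference of -0.58 (standard error 0.14, interval -0.87 to -0.28, 0.67-fold, adjusted p = 0.0398). In p27-/- samples, with a mean of 7.42 ± 0.18 (SD, n = 3), the difference was -0.37 (standard error 0.14, interval -0.67 to -0.08, adjusted p = 0.111). The call in compound mutants was kept in 8 of 21 alternative settings. It was lost with any 1 of 8 samples left out, those 8 being all 4 WT samples, p27-/- replicate 2 and all 3 compound mutant samples, where the adjusted p was 0.0554 to 0.211 and the difference -0.66 to -0.44. It was also lost with no filter on low values (adjusted p = 0.0652), in the fit of only the 2 groups (0.0698), and with a covariate of the X-linked transcript Xist (adjusted p = 0.0518), posterior lobe markers (-0.58, adjusted p = 0.0887) or anterior lobe hormones (-0.52, adjusted p = 0.103). Tgfbr1, its type I partner, was 9.05 to 9.48 in WT, 9.30 to 9.75 in p27-/- and 9.35 to 9.43 in compound mutant samples, with differences of 0.14 (interval -0.12 to 0.40, adjusted p = 0.516) and 0.05 (interval -0.22 to 0.31, adjusted p = 0.884). The distance from Tgfbr1 to Tgfbr2 within a sample, chosen after the values were seen and not tested, was 1.35 to 1.74 log2 units in WT, 1.89 to 2.15 in p27-/- and 2.05 to 2.40 in compound mutant samples.

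Bmpr2 and Tgfbr3 did not overlap with WT in p27-/- samples and missed the threshold. Bmpr2 (ENSMUSG00000067336, chr1:59764279-59878081), the type II receptor of BMPs, was 11.03, 11.26, 11.46 and 11.38 in WT, 10.93, 10.85 and 10.95 in p27-/- and 10.99, 10.99 and 11.30 in compound mutant samples. The difference in p27-/- was -0.37 (standard error 0.11, interval -0.61 to -0.14, adjusted p = 0.0518), and it fell under 0.05 in 5 of 21 alternative settings, among them without WT replicate 1 (-0.46, adjusted p = 0.0119) and without compound mutant replicate 3 (-0.37, adjusted p = 0.0421). In compound mutants it was -0.19 (interval -0.43 to 0.04, adjusted p = 0.388). Tgfbr3 (ENSMUSG00000029287, chr5:107106567-107289629), also called betaglycan, presents TGF-beta2 and inhibins to the other receptors. It was 9.94, 9.82, 10.10 and 9.81 in WT, 9.62, 9.71 and 9.60 in p27-/- and 10.09, 9.98 and 9.85 in compound mutant samples, so that p27-/- samples were below all others. The difference was -0.27 in p27-/- (standard error 0.09, interval -0.48 to -0.07, adjusted p = 0.0887) and 0.05 in compound mutants (interval -0.15 to 0.26, adjusted p = 0.813).

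Of the remaining 8 receptors, none passed the threshold in either mutant. Bmpr1b, a type I BMP receptor, had the largest of their differences, -0.23 in p27-/- (interval -0.54 to 0.09, adjusted p = 0.376) and -0.40 in compound mutants (interval -0.72 to -0.08, adjusted p = 0.166). Its values were 5.06 to 5.54 in WT and 4.69 to 5.23 in compound mutant samples. Bmpr1a, another type I BMP receptor, stayed between 10.64 and 11.11 in all 10 samples, with differences of -0.06 (interval -0.29 to 0.18) and -0.02 (interval -0.25 to 0.22). For Acvr1, Acvr1b, Acvr1c, Acvr2a, Acvr2b and Acvrl1, receptors of activins and related ligands, the differences lay between -0.21 and 0.06 in both mutants. Acvr1c was 4.93 in WT replicate 2, the sample with the highest Prl, and 3.97 to 4.19 in the other WT samples.

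**Figure D4:**
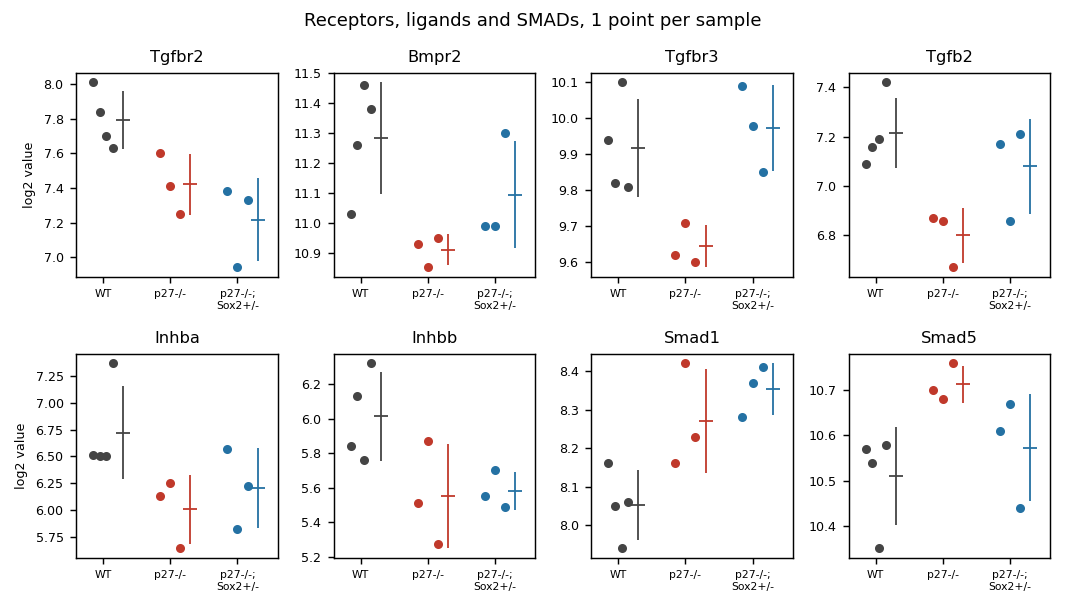
Log2 values (y axis, a separate scale for each gene) of 3 receptors, 3 ligand subunits and 2 SMADs in each sample, with the mean and SD of each group beside the points. Tgfbr2 is below WT in all mutant samples, p27-/- samples of Tgfbr3 (9.60 to 9.71) lie apart from both other groups, and WT replicate 4 of Inhba (7.37) stands above the other WT samples.

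The ligand subunits had means mostly below WT in p27-/- samples, and none passed the threshold in either mutant. At an unadjusted p under 0.05, 5 of 11 were lower in p27-/- (12.8% of all genes lower, 24.1% in either direction). In compound mutants 2 of 11 were lower (10.2% of all genes lower, 17.8% in either direction). These counts were not tested. Tgfb2 (ENSMUSG00000039239, chr1:186622787-186709697) was 7.09, 7.16, 7.19 and 7.42 in WT, 6.87, 6.86 and 6.67 in p27-/- and 7.17, 6.86 and 7.21 in compound mutant samples. The p27-/- samples were below all WT samples, with a difference of -0.42 (standard error 0.12, interval -0.69 to -0.15, adjusted p = 0.0543), which fell under the threshold in 4 of 21 alternative settings, among them without WT replicate 1 (-0.46, adjusted p = 0.0419). The difference in compound mutants was -0.13 (interval -0.40 to 0.13, adjusted p = 0.611). Tgfb1, between 3.59 and 4.07 in all samples, and Tgfb3, between 7.11 and 7.52, had differences of -0.11 and -0.17 in p27-/- and -0.13 and 0.00 in compound mutants.

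The activin beta subunits lay below WT in both mutants at an unadjusted p under 0.05 and missed the adjusted threshold, and the inhibin alpha subunit lay near WT. Inhba (ENSMUSG00000041324, chr13:16004256-16031609) was 6.51, 6.50, 6.50 and 7.37 in WT, 6.13, 6.25 and 5.64 in p27-/- and 6.57, 5.82 and 6.22 in compound mutant samples. Its difference was -0.71 in p27-/- (standard error 0.23, interval -1.21 to -0.22, adjusted p = 0.077) and -0.51 in compound mutants (standard error 0.23, interval -1.01 to -0.02, adjusted p = 0.262), and without WT replicate 4 it was -0.50 (adjusted p = 0.165) and -0.30 (adjusted p = 0.475). Inhbb (ENSMUSG00000037035, chr1:119415463-119422248) was 5.84, 6.13, 5.76 and 6.32 in WT, 5.51, 5.87 and 5.27 in p27-/- and 5.55, 5.70 and 5.49 in compound mutant samples. Compound mutant samples were below all WT samples, and 1 p27-/- sample lay within the WT range. The differences of Inhbb were -0.46 in p27-/- (standard error 0.16, interval -0.81 to -0.11, adjusted p = 0.102) and -0.43 in compound mutants (standard error 0.16, interval -0.78 to -0.08, adjusted p = 0.178). Inha, which pairs with either beta chain to form inhibin, was 7.37 to 7.95 in WT, 7.48 to 7.77 in p27-/- and 7.58 to 7.97 in compound mutant samples, with differences of 0.02 (interval -0.30 to 0.33, adjusted p = 0.961) and 0.15 (interval -0.16 to 0.47, adjusted p = 0.626). Within a sample, Inha exceeded Inhba by 0.58 to 1.21 log2 units in WT, 1.34 to 2.13 in p27-/- and 1.36 to 1.93 in compound mutant samples, and exceeded Inhbb by 1.53 to 1.66, 1.78 to 2.5 and 2.06 to 2.42. These distances did not overlap between WT and either mutant, and were chosen after the values were seen and not tested.

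The BMP ligands had smaller differences. Bmp6, a BMP known from iron regulation and bone, was 7.48 to 7.99 in WT, 7.15 to 7.51 in p27-/- and 7.39 to 7.58 in compound mutant samples, with differences of -0.33 (interval -0.61 to -0.04, adjusted p = 0.146) and -0.23 (interval -0.51 to 0.05, adjusted p = 0.389). Bmp4, needed for the early pituitary primordium, had differences of -0.27 (interval -0.53 to -0.01, adjusted p = 0.193) and -0.09 (interval -0.35 to 0.17, adjusted p = 0.755). Bmp7 had differences of -0.24 (interval -0.51 to 0.03) and -0.23 (interval -0.51 to 0.04) in the respective mutants. Bmp3, which antagonizes other BMPs, and Bmp5 were -0.14 and -0.06 in p27-/- and 0.18 and 0.21 in compound mutants, with intervals that included 0.

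The means of most SMADs lay above WT by small amounts. In p27-/- samples 5 of 8 did, where 48.4% of all tested genes were below 0. In compound mutants all 8 had a mean above WT, where 47.9% of all tested genes were below 0. Their median difference in compound mutants was 0.11, and none passed the threshold. The median was 0.07 without compound mutant replicate 1 and 0.17 without replicate 3, and 7 of 8 were above 0 without WT replicate 4 or compound mutant replicate 2, with the anterior lobe covariate and with the replicate block. Smad1, a BMP-activated SMAD (ENSMUSG00000031681, chr8:79338395-79399428), was 8.16, 8.05, 7.94 and 8.06 in WT, 8.16, 8.42 and 8.23 in p27-/- and 8.28, 8.37 and 8.41 in compound mutant samples. The compound mutant samples were above all WT samples, with a difference of 0.30 (standard error 0.10, interval 0.09 to 0.51, adjusted p = 0.12), and the difference in p27-/- was 0.22 (standard error 0.10, interval 0.01 to 0.42, adjusted p = 0.192). Smad5, another BMP-activated SMAD (ENSMUSG00000021540, chr13:56703010-56742378), was 10.57, 10.54, 10.35 and 10.58 in WT, 10.70, 10.68 and 10.76 in p27-/- and 10.61, 10.67 and 10.44 in compound mutant samples. Its p27-/- samples were above all WT samples, with a difference of 0.21 (standard error 0.09, interval 0.02 to 0.39, adjusted p = 0.16), against 0.07 in compound mutants (interval -0.12 to 0.25, adjusted p = 0.731). Smad9, the least expressed BMP-activated SMAD, was between 4.99 and 5.60 in all samples.

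The activin and TGF-beta SMADs, the shared partner and the inhibitory SMADs stayed close to WT. Smad2 had differences of 0.19 (interval -0.03 to 0.41) and 0.12 (interval -0.09 to 0.34), and Smad3 of -0.02 (interval -0.22 to 0.17) and 0.16 (interval -0.03 to 0.36). Smad4, the common partner, was between 9.01 and 9.19 in all samples, with differences of 0.03 in either mutant (intervals -0.14 to 0.20 and -0.15 to 0.20). Smad6 was -0.09 (interval -0.27 to 0.09) and 0.09 (interval -0.09 to 0.27), and Smad7 0.06 (interval -0.20 to 0.32) and 0.15 (interval -0.11 to 0.41). None had an adjusted p under 0.05, and differences up to the bounds of these intervals cannot be told from these samples.

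Among the secreted and membrane inhibitors, none of the 3 tested members passed the threshold. Grem1, a secreted BMP antagonist, was 3.67, 3.91, 4.15 and 4.40 in WT, 3.55, 3.69 and 3.68 in p27-/- and 3.97, 3.62 and 3.73 in compound mutant samples. Its differences were -0.39 (standard error 0.14, interval -0.70 to -0.08, adjusted p = 0.111) and -0.26 (interval -0.57 to 0.05, adjusted p = 0.368), and without WT replicate 1 the difference in p27-/- was -0.51 (adjusted p = 0.0234). Chrd, which traps BMPs outside the cell, was 6.93, 6.76, 6.83 and 6.98 in WT and 6.55, 6.70 and 6.73 in compound mutant samples, which did not overlap (difference -0.22, interval -0.47 to 0.04, adjusted p = 0.361), and 6.51, 6.84 and 6.79 in p27-/- samples (difference -0.16, interval -0.41 to 0.09, adjusted p = 0.436). Bambi, a decoy receptor, had differences of 0.14 (interval -0.09 to 0.37) and -0.12 (interval -0.35 to 0.12). Bmp1, a protease that cleaves Chrd and procollagens, was 6.62, 6.42, 6.48 and 6.46 in WT, 6.72, 6.62 and 6.64 in p27-/- and 6.59, 6.77 and 6.37 in compound mutant samples. Its p27-/- samples lay just above the highest WT sample, and the difference of 0.16 (interval -0.09 to 0.42, adjusted p = 0.433) did not pass.

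Removing 1 copy of Sox2 on the p27-/- background moved no member past the threshold. In compound mutant compared with p27-/- samples, 0 of 39 members were called (limma, adjusted p under 0.05), against 0.145% of all tested genes, 0.0811% higher and 0.0637% lower. At an unadjusted p under 0.05 there were 7 members, or 17.9% against 6.65% of all genes (3.46% higher and 3.19% lower), with Bmp5, Tgfb2 and Tgfbr3 higher and Bambi, Id1, Id2 and Id3 lower in the compound mutants. Groups did not overlap for 8 members, Bmpr2, Smad3 and Tgfbr3 higher and Bambi, Id1, Id2, Id3 and Smad5 lower, or 20.5% against 15.3% of all genes (7.51% higher and 7.75% lower). Id2 had a difference of -0.53 (standard error 0.14, interval -0.82 to -0.23, adjusted p = 0.241), Id3 of -0.47 (standard error 0.17, interval -0.83 to -0.10, adjusted p = 0.548) and Id1 of -0.39 (standard error 0.14, interval -0.68 to -0.09, adjusted p = 0.517), whereas Id4 had -0.03 (interval -0.30 to 0.23, adjusted p = 0.996). Bambi was 4.32, 4.43 and 4.38 in p27-/- and 3.99, 4.21 and 4.16 in compound mutant samples, a difference of -0.26 (interval -0.51 to -0.01, adjusted p = 0.72). Tgfbr3 was higher by 0.33 (standard error 0.10, interval 0.12 to 0.54, adjusted p = 0.371) and Tgfb2 by 0.29 (interval 0.00 to 0.57, adjusted p = 0.751), and for Tgfbr2 the difference was -0.20 (interval -0.52 to 0.11, adjusted p = 0.941). Since 3 samples stood against 3, and the threshold was met by 25 genes in all, an adjusted p above it does not show that the mutants were alike. The median was 0.0397 over the members and -0.0044 over all genes, and 51.4% of all tested genes were below 0. Above 0 were 10 of 11 ligands, 7 of 11 without p27-/- replicate 3, and 9 of 11 with median centring or quantile normalization. The ligand median of 0.17 became 0.05 without compound mutant replicate 1. This comparison uses the same p27-/- samples as that of p27-/- with WT. A deviation of these samples would move the differences of both comparisons in opposite directions. The ligand and Id differences here are thus not independent of those from WT.

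The wider pathway was examined in 5 lists of 105 other gene symbols. Among them Ccn1 and Ccn2 are newer symbols of Cyr61 and Ctgf, which were also listed. Of the 105 symbols, 94 were in the table and 71 were tested. In p27-/- compared with WT samples, 2 rose and 10 fell, or 16.9% against 7.78% of all tested genes, and in compound mutants 2 rose and 3 fell, or 7.04% against 2.71%. At an unadjusted p under 0.05 there were 24 (33.8% against 24.1% of all genes) and 23 (32.4% against 17.8%). Between the mutants none was called (limma, against 0.145% of all genes), with 4 at an unadjusted p under 0.05 (5.63% against 6.65%). Of the genes that fell in p27-/- samples, 6 of 10 were extracellular regulators. Of 21 tested extracellular regulators, 6 fell and none rose in p27-/-, namely Crim1, Htra1, Htra3, Ltbp1, Ltbp4 and Nbl1, with a list median of -0.27. In compound mutants 1 of them fell, Ltbp4, and Twsg1 rose, with a median of -0.28, while 12 of the 21 had an unadjusted p under 0.05 there and 9 in p27-/-. Of 25 intracellular regulators 1 fell in either mutant, Pmepa1, with medians of 0.02 and 0.01. Of 18 tested common target genes, Fshb, Hey1, Pmepa1 and Runx2 fell in p27-/- and Fshb and Pmepa1 in compound mutants, with medians of -0.17 and -0.22. Pmepa1 and Skil are in both of these lists, and Ltbp2 is in those of extracellular regulators and target genes. Of 3 other ligands Gdnf rose in p27-/-, and of 6 other receptors and co-receptors Rgmb rose in either mutant. In p27-/- samples Htra3 differed by -0.41 (limma adjusted p = 0.0468), Nbl1 by -0.62 (adjusted p = 0.0386) and Hey1 by -0.61 (adjusted p = 0.0375). These calls and the list counts were not followed under the alternative settings. The lists were chosen with earlier results of these data known.

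Rgmb, a membrane-anchored co-receptor of BMPs, had the smallest p of these genes in p27-/- samples, and Pmepa1 had it in compound mutants. It was 8.18, 8.06, 8.02 and 8.18 in WT, 8.78, 8.82 and 8.72 in p27-/- and 8.62, 8.71 and 8.59 in compound mutant samples, with all mutant samples above all WT samples. The rise was 0.66 in p27-/- (standard error 0.09, 1.58-fold, adjusted p = 0.000865) and 0.53 in compound mutants (standard error 0.09, 1.44-fold, adjusted p = 0.00729), the latter lost without compound mutant replicate 2 (0.49, adjusted p = 0.0604). Pmepa1, a TGF-beta target that feeds back on SMAD2 and SMAD3, was 8.98, 8.67, 9.18 and 9.06 in WT, 8.40, 8.06 and 8.43 in p27-/- and 8.28, 7.91 and 7.94 in compound mutant samples. It fell by 0.68 in p27-/- (standard error 0.14, 0.626-fold, adjusted p = 0.0111, and 0.0589 without p27-/- replicate 2) and by 0.93 in compound mutants (standard error 0.14, 0.526-fold, adjusted p = 0.00484). Both genes thus lay apart from WT in all 6 mutant samples.

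Of the latent TGF-beta binding proteins, which store TGF-beta in the matrix, Ltbp1 and Ltbp4 fell, and Ltbp3 did not pass the threshold. The differences of Ltbp3 were -0.20 in p27-/- (limma adjusted p = 0.262) and -0.07 in compound mutants (adjusted p = 0.782). Ltbp4 was 9.37, 8.95, 9.30 and 9.28 in WT, 8.58, 8.55 and 8.39 in p27-/- and 8.91, 8.42 and 8.48 in compound mutant samples, and fell by 0.72 (standard error 0.13, adjusted p = 0.00624) and 0.62 (standard error 0.13, adjusted p = 0.0236). The second of these calls was lost without WT replicate 3 or 4 or compound mutant replicate 2 or 3 (adjusted p = 0.0552, 0.0615, 0.143 and 0.0915). Ltbp1 was 7.59, 6.79, 7.40 and 7.15 in WT and 6.35, 6.07 and 6.56 in p27-/- samples, and fell by 0.90 (standard error 0.19, adjusted p = 0.0121, and 0.0623 without p27-/- replicate 2). In compound mutants it was 6.71, 6.31 and 6.80 (difference -0.63, adjusted p = 0.0942), and 1 of these samples lay within the WT range.

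The other named genes were less stable. Twsg1, which binds BMPs together with Chrd, was 11.16 to 11.29 in WT, 11.37 to 11.60 in p27-/- and 11.54 to 11.58 in compound mutant samples, with differences of 0.26 (adjusted p = 0.0644) and 0.36 (adjusted p = 0.0307). Gdnf, a distant ligand of the family that signals through RET, rose by 0.54 in p27-/- (adjusted p = 0.0337). Crim1, a transmembrane BMP-binding protein, fell by 0.68 (adjusted p = 0.0371), Htra1, a secreted protease, by 0.76 (adjusted p = 0.0349) and Runx2, a transcription factor of bone, by 0.80 (adjusted p = 0.0209) in p27-/- samples. Each of these 5 calls was lost when any 1 of several samples was left out. For Crim1 these were WT replicates 1 and 3 and the 3 p27-/- samples (adjusted p up to 0.123), for Gdnf WT replicates 1 and 3, p27-/- replicates 2 and 3 and compound mutant replicate 2 (up to 0.147), and for Htra1 WT replicates 1, 3 and 4 and the 3 p27-/- samples (up to 0.108). For Runx2 they were p27-/- replicates 1 and 3 (up to 0.101), and for Twsg1 WT replicates 3 and 4 and the 3 compound mutant samples (up to 0.127). The fit with no filter on low values ended the calls of Crim1, Htra1 and, in both mutants, Fshb (adjusted p = 0.0516 to 0.062), and the fit of only the 2 groups compared those of Crim1, Gdnf and, in compound mutants, Fshb, Ltbp4 and Twsg1 (0.0503 to 0.0615). That of Twsg1 was also lost without the variance trend (0.0528), and that of Htra1 with quantile normalization (0.0524). Fshb, the beta subunit of follicle-stimulating hormone and a target of activin in the anterior lobe, was 7.15, 9.24, 9.61 and 9.64 in WT, 7.26, 6.96 and 6.37 in p27-/- and 6.52, 5.91 and 7.50 in compound mutant samples. It fell by 2.04 (adjusted p = 0.028) and 2.27 (adjusted p = 0.0294), and WT replicate 1 lay within the range of the mutants. The log2 value of the summed anterior lobe hormone genes, of which Fshb is 1, was 13.87 to 17.76 in WT, 12.77 to 16.55 in p27-/- and 13.41 to 14.82 in compound mutant samples, and with these markers as a covariate the adjusted p of Fshb was 0.0502 and 0.0973. Both calls were lost without WT replicate 3 or 4, the first also without any p27-/- sample (adjusted p up to 0.123) and the second without compound mutant replicate 1 or 2 (up to 0.162).

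**Figure D5:**
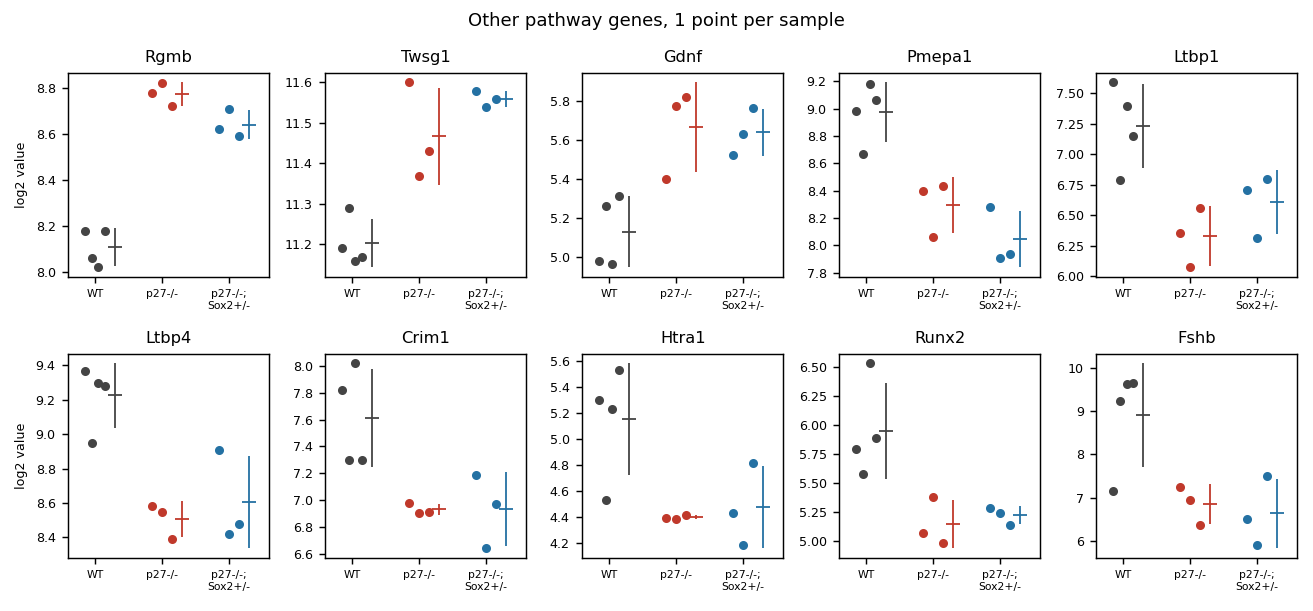
Log2 values (y axis, a separate scale for each gene) of the 10 named genes of the wider pathway in each sample, with the mean and SD of each group beside the points. Rgmb is higher and Pmepa1 and Ltbp4 are lower than WT in all 6 mutant samples, while WT replicate 1 of Fshb (7.15) lies among the mutants.

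Markers of other cell types were set beside these results. The sums hold all listed markers found, also those below the minimum, and the calls concern the tested ones. Posterior lobe markers summed to log2 values of 10.58 to 12.56 in WT, 11.04 to 11.22 in p27-/- and 10.71 to 12.37 in compound mutant samples, with 0 of 8 past the threshold in either mutant. Endothelial markers summed to 9.49 to 9.91, 9.20 to 9.55 and 9.16 to 9.58, and 2 of 11, the VEGF receptors Flt1 and Kdr, fell in either mutant, where 4.62% of all tested genes were lower in p27-/- and 1.88% in compound mutants. Fibroblast and mural markers summed to 11.94 to 12.41, 11.30 to 12.14 and 11.39 to 12.07, with 2 of 14 lower in p27-/-, and pituitary stem cell markers to 11.23 to 11.62, 10.81 to 11.06 and 10.87 to 11.16, with 1 of 9 and 2 of 9 lower. The stem cell sums did not overlap between WT and either mutant. Their markers include Sox2, of which the compound mutants lack 1 copy. The stem cell marker called in p27-/- was Rbpms, and those in compound mutants were Cpxm2 and Lcn2. Tgfbr2 did not overlap with WT either, as was so for 20.6% of all tested genes in p27-/- and 15.0% in compound mutants. Macrophage markers summed to 9.50 to 10.31, 9.68 to 9.77 and 9.44 to 9.75, with none of 10 past the threshold, and melanotroph markers to 18.17 to 19.11, 18.72 to 19.11 and 18.51 to 18.69. Of 8 tested melanotroph markers, the prohormone convertase Pcsk1 fell in both mutants (differences -0.45 and -0.42) and Pcsk2, another convertase, rose in p27-/- (0.53). Erythrocyte markers summed to 8.12 to 9.42, 7.56 to 10.02 and 7.41 to 9.16. With posterior lobe markers as a covariate the difference was 0.76 for Id2 in p27-/- and -0.58 for Tgfbr2 in compound mutants. This covariate ended the calls, in p27-/-, of Crim1 (-0.61, adjusted p = 0.123), Gdnf (0.56, adjusted p = 0.0749), Htra1 (-0.48, adjusted p = 0.0608), Runx2 (-0.72, adjusted p = 0.0762) and Fshb (-1.72, adjusted p = 0.101). In compound mutants it ended those of Tgfbr2, given above, Ltbp4 (-0.59, adjusted p = 0.0706), Twsg1 (0.33, adjusted p = 0.102) and Fshb (-1.97, adjusted p = 0.0862). The fibroblast and mural list shares Dcn with the extracellular regulators, and Col1a1, Col1a2 and Acta2 with the common target genes. The part of the endothelial, fibroblast and stem cell markers in the differences of Tgfbr2, the ligands and the extracellular regulators was not tested.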

How the data were processed

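RNA of dissected IL was sequenced, and the authors aligned the reads with STAR 2.5.2a, counted them per gene with RSEM 1.3.30 on the Ensembl GRCm38 transcriptome without use of strand, normalized the counts with DESeq2 1.18.1 and deposited log2 values; the transformation is not given in the sources used here. Overlapping and antisense genes thus cannot be told apart. The table does not give the depth, so the number of samples limits the precision. The genotype labels gave the groups. Symbols were matched for 22709 of 29527 IDs, with positions and promoters from RefSeq (GRCm38.p6). Exon lengths came from an early GENCODE release, older than the annotation on which the reads were counted. The study lists as many animals as samples in each group, so each sample was taken as 1 animal.

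Genes with a mean of at least 10 (3.32 on the log2 scale) entered 1 fit of all 10 samples in limma 3.58.1 (R 4.3.3, variance trend on the mean), with p-values adjusted by Benjamini and Hochberg's method over 17268 genes and a threshold of 0.05. Differences and intervals are those of this fit. On simulated data for p27-/- against WT, with 200 genes of 17268 shifted, the fit found 0% of shifts of 0.25 log2 units, 30.5% of 0.5 and 94.5% of 1. In the data 1343 genes passed, so the adjusted threshold was looser than in the simulation, and these shares need not hold there. The members, lists and tests were chosen with earlier results of these data known. Every member was named, with full values for those past the threshold or without overlap, and of the wider lists the 10 genes with the smallest p among those past the threshold. The 21 alternatives were the filter (none, or a minimum of 50), fits limited to a pair of groups, eBayes without the trend, array weights, quantile normalization, median centring, a replicate block, covariates for Xist, posterior and anterior lobe markers, and each sample left out in turn. Python 3.11.15, numpy 2.4.6, pandas 2.3.3 and matplotlib 3.10.9 were used.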

Additional observations from a re-analysis of the deposited data

Results flagged for a closer look

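Among the 39 tested members, 2 had a WT sample whose gap to its nearest neighbor, over the range of the 4 WT samples, was above the 95% critical value of Dixon's test, where about 1 in 20 genes, or 1.95 of 39, would be flagged by chance. For Inhba, WT replicate 4 was at a log2 value of 7.37, and the other WT samples were at 6.50 to 6.51 (gap over range 0.984). For Smad7, WT replicate 2 was at 6.67, and the others were at 6.93 to 6.98 (gap over range 0.849).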

How the results depend on the processing

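The 41 single-gene comparisons followed were those of members with an unadjusted p under 0.05 and of named wider genes past the threshold. All comparisons of Id2 and Tgfbr2 were added. Under the alternatives 852 values were obtained. None changed direction, but this choice made such a change unlikely, and several alternatives leave a difference as it was. Members outside the choice did change sign, as the receptor counts above show. Of the values, 759 stayed on the same side of the threshold, 78 lost it and 15 gained it. The number of members lower in p27-/- than WT, 0, became 2 with a mean of at least 50, 1 without trend, 3 with array weights (Bmpr2, Inhba and Tgfb2) and 1 with quantile normalization, and ranged from 0 to 3 with a sample left out, 3 without WT replicate 1. The number lower in compound mutants, 1, became 0 with no filter, in the fit of 2 groups and with each of the 3 covariates, and 3 with array weights (Bmpr1b, Inhba and Tgfbr2), and ranged from 0 to 1 with a sample left out. Between the mutants, array weights gave 1 higher (Tgfbr3, adjusted p = 0.0368) and 1 lower (Id2, adjusted p = 0.0331) in place of 0. The member median in p27-/- was -0.0874 with array weights and -0.0851 with the replicate block, and -0.1157 to -0.0222 with a sample left out. That in compound mutants was -0.0398 to -0.0038 with a sample left out. Between the mutants it was 0.069 with quantile normalization and 0.005 to 0.0677 with a sample left out. The causes were not tested. Counts over all genes moved by over 1.5 times: 1343 genes in p27-/- became 831 with no filter, 807 in the fit of 2 groups, 491 with the posterior lobe covariate and 403 to 1709 with a sample left out, 468 in compound mutants became 312, 260, 206 and 80 to 658, and 1240 with array weights, and 25 between the mutants became 6, 45, 21 and 0 to 41, 8 without trend, 15 with quantile normalization and 283 with array weights.

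Samples with the same replicate number did not deviate together (correlations of -0.24 to 0.18 in 9 pairs, against -0.19 to 0.26 in 24 others). So few pairs cannot exclude that the numbers pair some samples. Replicate 4 exists in WT only, so the replicate block takes WT replicate 4 out of the differences. For Fshb in p27-/- both the block and leaving out that sample gave -1.80. The block is thus not a separate check of pairing. With the replicate block the members called were unchanged in number, 1 higher in p27-/- and 1 lower in compound mutants, the calls of Fshb in both mutants, Htra1, Runx2 and Twsg1 were lost (adjusted p = 0.0521 to 0.119), and all-gene counts were 595, 209 and 2. Neither another pseudocount nor a count test was run, since the deposited values are log2 values.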
